A study of Mus musculus with 4 samples.

Results

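The genes described here are those of 8 granule proteases, Tpsab1, Tpsb2, Cma1, Mcpt4, Mcpt8, Cpa3, Prss34 and Gzmb, and of the granule proteoglycan serglycin (Srgn). They were taken by name from the authors' deposited table, which held a row for all 9 among its 23234 genes. No other row of the table overlapped the locus of any of the 9. The cells were extensively self-renewing erythroblasts of the mouse (ESREs), immature red cell precursors that keep dividing in culture. The groups with values were proliferating cells carrying a short hairpin RNA against Setd8, cells carrying a non-targeting hairpin and placed in maturation medium for 6 h before collection, and proliferating cells carrying the non-targeting hairpin. Setd8 is the enzyme that adds a single methyl group to lysine 20 of histone H4. Each group was 1 sample, all cells carried a hairpin, and maturing knockdown cells, the other group of the labels, were not analysed here. The labels give no strain, culture number or clone, and say for no group whether its sample was pooled.

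Mast cells and basophils store proteases at high concentration in secretory granules, bound to the sulphated sugar chains that serglycin carries. Tryptases and chymases are trypsin-like and chymotrypsin-like serine proteases, and carboxypeptidase A3 (Cpa3) is a metalloprotease of the same granules. Mcpt8 and Prss34 mark mouse basophils rather than mast cells, granzyme B (Gzmb) is best known from cytotoxic lymphocytes, and serglycin is made by many blood cells, so the label of mast cell granule proteases holds strictly for part of the set. Mast cells and erythroblasts arise from progenitors that use the transcription factor Gata2.

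Levels are in FPKM (fragments per kilobase of transcript, relative to the fragments of the library), so levels of different genes within a library can be compared. The number of fragments behind them is unknown. Judged by the FPKM step of 1 fragment in genes with hardly any, the knockdown library was 1.44 times and the maturing control library 1.55 times as deep as the proliferating control library. Setd8 stood at 9.28 FPKM in the knockdown, against 25.9 FPKM in the maturing control and 25.1 FPKM in the proliferating control. Of 13 erythroblast markers searched for, 10 reached 1 FPKM in the knockdown, against 13 in the maturing control and 12 in the proliferating control. The 3 below it in the knockdown were Alas2 (0.0900 FPKM), Hemgn (0.251 FPKM) and Slc4a1 (0.268 FPKM). With 1 library per group no difference has a replicate check, and calls are those of the authors' deposited table (a q-value, the p-value adjusted over all genes tested, of at most 0.05). The standard errors (SE) printed are those of the authors' model and hold no spread between cultures. In bulk RNA, a change in the number of cells that make a transcript and a change in its amount per cell cannot be told apart.

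Within each library the order of levels differed. In the knockdown library it ran from Srgn through Tpsab1, Cma1, Tpsb2, Cpa3, Mcpt4, Mcpt8 and Gzmb to Prss34. In the maturing control it ran from Srgn through Cma1, Gzmb, Cpa3, Mcpt4, Tpsab1, Tpsb2 and Mcpt8 to Prss34. In the proliferating control it ran from Srgn through Cma1, Cpa3, Gzmb, Tpsab1, Mcpt4 and Tpsb2 to Mcpt8 and Prss34, both listed at 0. Neighbours in these orders have no measured spread against which to set them apart. Cma1, Cpa3 and Gzmb lay close together in the proliferating control, at 1.61, 1.499 and 1.43 FPKM.

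**Figure D1:**
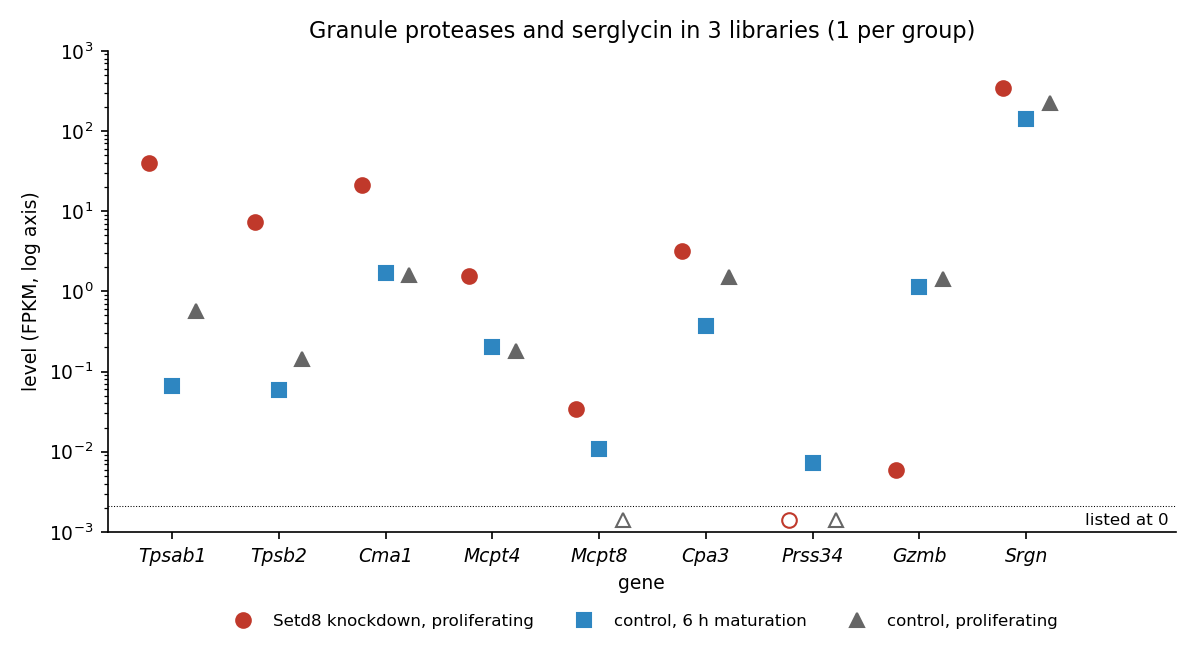
Level in FPKM (log axis) of the 8 proteases and Srgn in the knockdown (red circles), maturing control (blue squares) and proliferating control (grey triangles) libraries, 1 library each; open symbols below the dotted line are genes listed at 0. Tpsab1, Tpsb2, Cma1 and Mcpt4 stood apart upwards in the knockdown, while Gzmb stood at 0.00592 FPKM there and above 1 FPKM in both control libraries.

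The 8 protease levels summed to 73.5 FPKM in the knockdown, against 3.55 FPKM in the maturing control and 5.42 FPKM in the proliferating control. The knockdown sum was thus 13.6 times that of the proliferating control, and the maturing sum 0.654 times. Tpsab1 held 54.9% of the knockdown sum, Cma1 28.6%, Tpsb2 10.04% and Cpa3 4.29%. In the maturing control, Cma1 held 47.7% and Gzmb 32.2%, with 3.51% for the pair of tryptases. In the proliferating control Cma1 held 29.6%, Cpa3 27.7%, Gzmb 26.4% and the tryptases 13.1%. Tryptase levels were 2.12 times the summed levels of the chymases Cma1 and Mcpt4 in the knockdown, against 0.0655 times in the maturing control and 0.397 times in the proliferating control. The proteases were therefore mostly tryptase in the knockdown and mostly chymase, granzyme and carboxypeptidase in both controls.

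**Figure D2:**
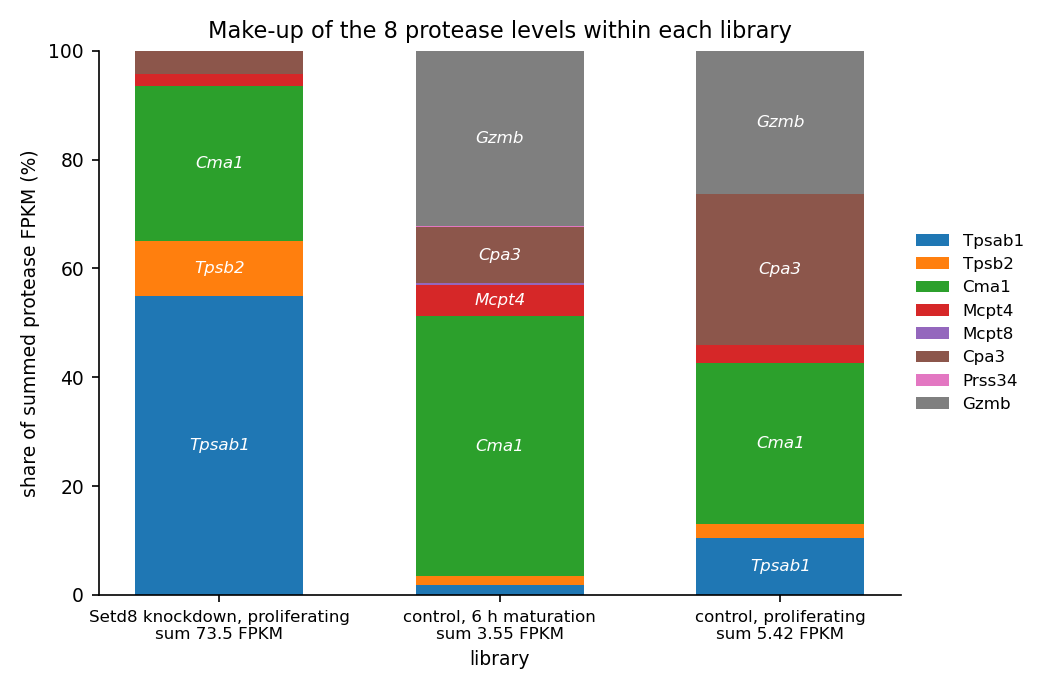
Share (%) of the summed FPKM of the 8 proteases held by each, for the knockdown, maturing control and proliferating control libraries, with the sum under each bar. Tpsab1 made up 54.9% of the knockdown sum, and Gzmb 32.2% and 26.4% of the maturing and proliferating control sums.

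Counted over the 9 genes, the authors tested 7 in the knockdown comparison and called 4 higher and 1 lower. Of all 11665 genes tested, 5.81% were called higher and 3.24% lower, so 9.05% were called in either direction, against 5 of the 7 members. The median log2 ratio of FPKM + 1 over all 9 was 0.73, against -0.02 over all tested genes, and the values ran from -1.27 for Gzmb to 4.72 for Tpsab1. The 4 called higher were the tryptases and chymases, and Tpsab1, Tpsb2 and Mcpt4 among them reached 1 FPKM through the knockdown library alone. Gata2, the gene named in the study's title, was at 129 FPKM in the knockdown, 29.6 FPKM in the maturing control and 54.9 FPKM in the proliferating control, and was called higher in the knockdown (authors' deposited log2 ratio 1.24, SE 0.37, q 0.0156).

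Tpsab1 (chromosome 17, 25480189 to 25482507 in mm9) encodes a tryptase also called mMCP-7, and Tpsb2 (chromosome 17, 25503277 to 25505037) encodes mMCP-6, the other mast cell tryptase. Tpsab1 was at 40.4 FPKM in the knockdown, 0.0662 FPKM in the maturing control and 0.565 FPKM in the proliferating control. It exceeded 97.3% of all genes in the knockdown library, against 50.7% and 58.5% in the maturing and proliferating controls. The knockdown level was 71.4 times that of the proliferating control. The authors' deposited table gave it a log2 ratio of 6.16 (SE 0.49) with a q listed as 0. Tpsb2 was at 7.37 FPKM in the knockdown, 0.0581 FPKM in the maturing control and 0.143 FPKM in the proliferating control. Its knockdown level was 51.7 times that of the proliferating control, and the authors' deposited table gave a log2 ratio of 5.69 (SE 0.61), again with a q listed as 0. Both tryptases were thus called higher in the knockdown and were below 1 FPKM in both control libraries. Tpsab1 exceeded Tpsb2 by 5.47 times in the knockdown, against 1.14 times in the maturing control and 3.96 times in the proliferating control.

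Whether fragments of these 2 tryptases can be told apart bears on how their levels were split. The coding sequences of the GENCODE transcripts (GRCm38) were identical at 74.97% of 831 aligned bases, and their longest identical run was 39 bases. No stretch of 50 bases was common to both. The 90 coding bases at which they differ most, at 41 positions, are shown with the differing bases in capitals. They span coding bases 342 to 431 of Tpsab1 and 240 to 329 of Tpsb2.
Tpsab1: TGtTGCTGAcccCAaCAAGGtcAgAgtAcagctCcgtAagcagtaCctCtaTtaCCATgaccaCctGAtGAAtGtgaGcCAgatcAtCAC
Tpsb2: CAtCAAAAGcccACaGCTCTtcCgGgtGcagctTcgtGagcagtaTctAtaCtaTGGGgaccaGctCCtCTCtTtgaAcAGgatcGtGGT
The read length is not given in the sources used here, so how many fragments fell in shared runs is unknown.

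Among the 13 genes of the tryptase locus list with a row, the authors tested 3 in the knockdown comparison. They called all 3 higher, Tpsab1, Tpsb2 and Tpsg1, against 5.81% of all tested genes. Tpsg1 was not tested between the control libraries, so it counts as tested through its knockdown level. The share called is therefore no independent support. Tpsg1, the membrane-anchored gamma tryptase, was at 0.673 FPKM in the knockdown, 0.00718 FPKM in the maturing control and 0.0339 FPKM in the proliferating control (authors' deposited log2 ratio 4.31, SE 0.94, q 1.52e-04). Its row shares a locus with Cacna1h, so its split from that gene is uncertain. The median log2 ratio of FPKM + 1 over the 13 genes was 0.02, since 11 of them were below 1 FPKM in every library. The authors tested none of the 3 rows after the cluster. Prss34, at the other end of the cluster, is the basophil tryptase-like protease mMCP-11. It was listed at 0 in the knockdown and in the proliferating control and stood at 0.00730 FPKM in the maturing control, and the authors did not test it.

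Cma1 (chromosome 14, 56560287 to 56563498 in mm9) encodes the mast cell chymase mMCP-5. It was at 21.01 FPKM in the knockdown, 1.69 FPKM in the maturing control and 1.61 FPKM in the proliferating control. It was the protease with the highest level in both controls and came after Tpsab1 in the knockdown. The knockdown level was 13.1 times that of the proliferating control, and the authors' deposited table gave a log2 ratio of 3.71 (SE 0.50, q 1.08e-11). Mcpt4 (chromosome 14, 56678580 to 56681147) encodes the connective tissue mast cell chymase mMCP-4. It was at 1.53 FPKM in the knockdown, 0.205 FPKM in the maturing control and 0.178 FPKM in the proliferating control. At 8.62 times the proliferating control it was called higher in the authors' deposited table (log2 ratio 3.11, SE 0.59, q 6.69e-06). Cma1 exceeded Mcpt4 by 13.7 times in the knockdown, against 8.26 times in the maturing control and 9.03 times in the proliferating control.

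These chymase genes lie in a cluster of 16 rows that spans 321 kb and ends with the granzymes. The cluster divided by position. The first 7 rows, from Cma1 to Mcpt4, were all called higher in the knockdown in the authors' deposited table, and the last 2, Gzmc and Gzmb, were called lower. The 7 rows between them, from Mcpt8 to Gzmf, were not tested. Mcpt9 was not tested between the control libraries, so it counts as tested through its knockdown level. Over all tested genes, 5.81% were called higher and 3.24% lower. Of the neighbours of Mcpt4, Cma2 was at 1.41 FPKM in the knockdown, 0.173 FPKM in the maturing control and 0.118 FPKM in the proliferating control (authors' deposited log2 ratio 3.58, SE 0.63, q 8.90e-07). The pseudogene Mcpt-ps1 was at 1.12, 0.152 and 0.143 FPKM in the same order of libraries (authors' deposited log2 ratio 2.98, q 9.40e-05). The mucosal mast cell protease gene Mcpt1 and its relative Mcpt9 were called higher below 1 FPKM, at 0.681 and 0.555 FPKM in the knockdown, against 0.113 and 0.0617 FPKM in the proliferating control. Mcpt2 was at 0.621 FPKM in the knockdown, 0.513 FPKM in the maturing control and 0.179 FPKM in the proliferating control (authors' deposited log2 ratio 1.79, q 0.0379), so its maturing control level lay nearer to the knockdown. The coding sequences of Cma2 and Mcpt9 were identical at 98.1% of 741 aligned bases, and 52.3% of the 50-base words of each occur in the other, so the split between them is uncertain. Mcpt4 shared 1.01% of such words with Cma2 and with Mcpt9, and Cma1 shared none with any gene of the cluster compared. Mcpt1 shared none either, but had identical runs of 49 bases with Mcpt2 and 46 bases with Mcpt4. With the read length unknown, how many fragments fell in such runs is unknown. The sequence of Mcpt-ps1 was not compared. The 7 calls from Cma1 to Mcpt4 may therefore not be 7 separate observations. Outside the cluster, the authors tested 3 of 6 flanking rows and called none. The 2 nearest expressed flanking genes, Khnyn and Sdr39u1, were at 9.82 and 7.27 FPKM in the knockdown, against 5.30 and 4.02 FPKM in the proliferating control.

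**Figure D3:**
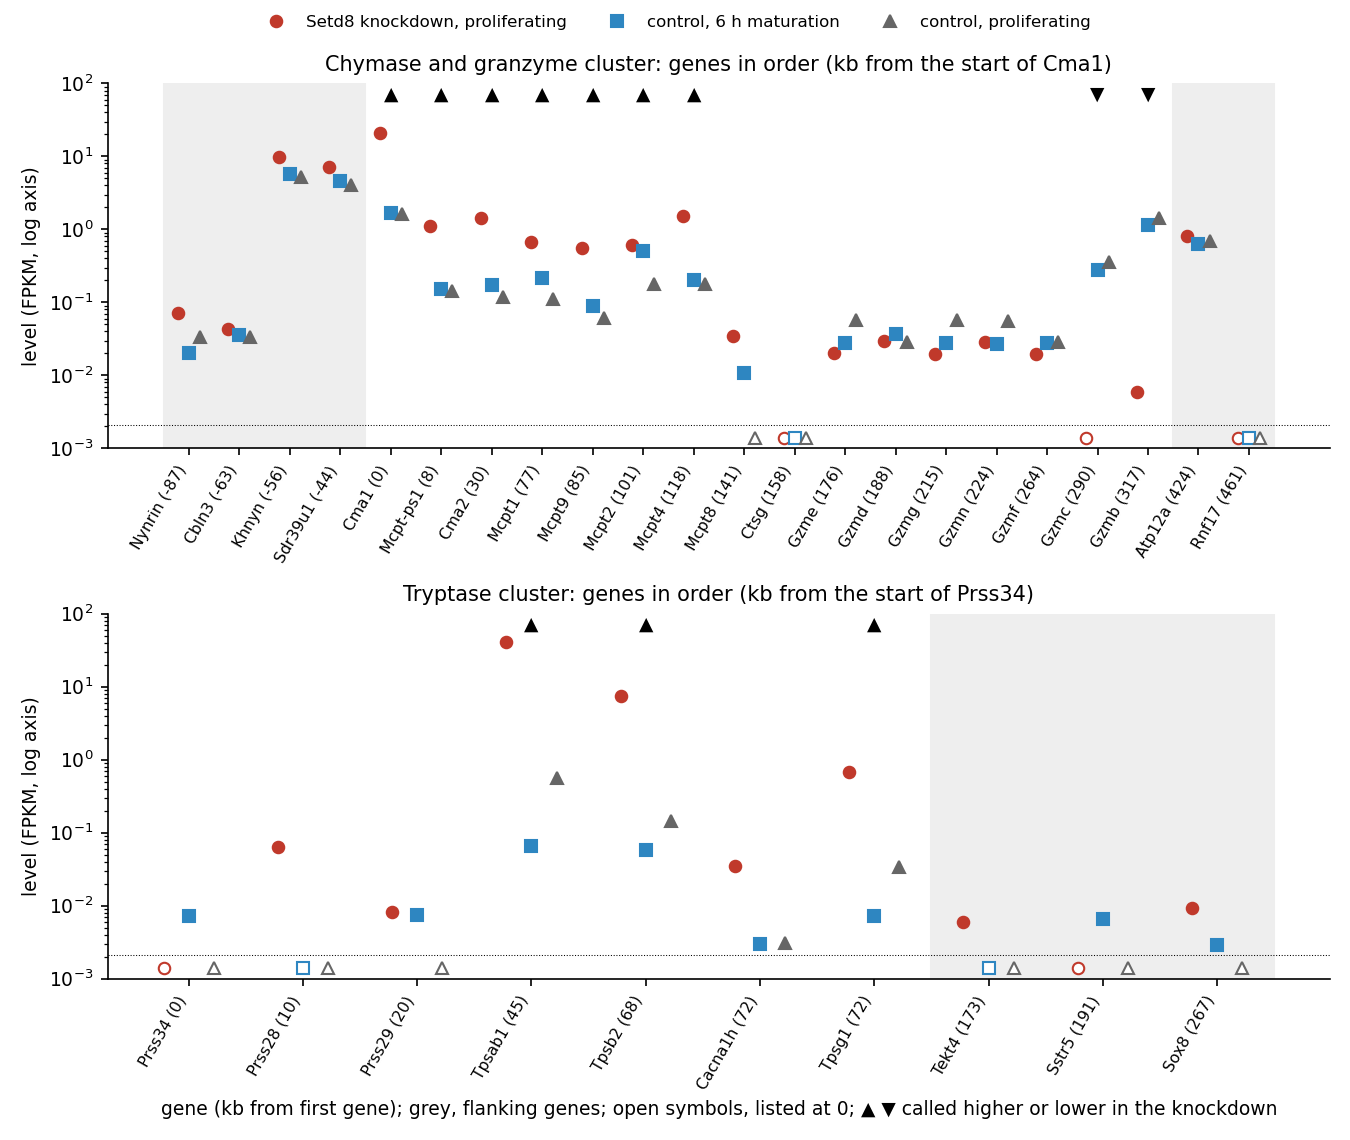
Level in FPKM (log axis) of genes in chromosomal order, with the distance in kb from the first gene, for the chymase and granzyme cluster (top) and the tryptase cluster (bottom); red, knockdown; blue, maturing control; grey, proliferating control; grey bands, flanking genes (for the tryptase cluster, on 1 side); open symbols, listed at 0. Upward marks (called higher in the knockdown) cover the 7 rows from Cma1 to Mcpt4, and downward marks cover Gzmc and Gzmb at the other end.

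Gzmb (chromosome 14, 56877694 to 56881097 in mm9) encodes granzyme B, which cleaves after aspartate and activates caspases in target cells. It was at 0.00592 FPKM in the knockdown, 1.14 FPKM in the maturing control and 1.43 FPKM in the proliferating control. The knockdown level was 0.414% of that in the proliferating control, and the authors' deposited table gave a log2 ratio of -7.92 (SE 1.57, q 1.86e-05). This SE was the largest among the members tested, beside a knockdown value close to 0. Gzmc, the neighbouring granzyme C, was listed at 0 in the knockdown, at 0.278 FPKM in the maturing control and at 0.354 FPKM in the proliferating control, and was called lower (authors' deposited q 0.00416). Gzmb and Gzmc coding sequences were identical at 76.0% of 742 aligned bases and shared no 50-base word. Their longest identical run was 49 bases, so with the read length unknown their split is not certain. The 5 granzymes between Ctsg and Gzmc (Gzmd, Gzme, Gzmf, Gzmg and Gzmn) lay between 0.0197 and 0.0572 FPKM in all 3 libraries and were not tested. Cathepsin G (Ctsg), the protease of neutrophil granules in the same cluster, was listed at 0 in all 3.

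The stretches before the starts of Cma1, Mcpt4 and Gzmb are shown because these genes share a cluster and moved in different directions. Each is the 250 bases before the start in RefSeq (GRCm38.p6, strand minus for all 3), and capitals mark matches to the GATA spellings AGATAA or TGATAA, and to those that end in G instead (AGATAG or TGATAG), on either strand. The windows are chr14:55944676-55944925 for Cma1, chr14:56062311-56062560 for Mcpt4 and chr14:56262335-56262584 for Gzmb.
Cma1: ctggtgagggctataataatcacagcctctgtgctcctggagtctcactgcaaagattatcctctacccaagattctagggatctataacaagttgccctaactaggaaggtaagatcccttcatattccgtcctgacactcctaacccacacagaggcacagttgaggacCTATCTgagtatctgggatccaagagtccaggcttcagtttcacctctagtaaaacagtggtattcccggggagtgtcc
Mcpt4: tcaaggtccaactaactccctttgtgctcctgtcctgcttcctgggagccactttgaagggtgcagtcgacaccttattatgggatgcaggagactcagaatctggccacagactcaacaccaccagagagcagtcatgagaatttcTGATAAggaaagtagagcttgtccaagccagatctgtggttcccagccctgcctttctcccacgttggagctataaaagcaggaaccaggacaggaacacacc
Gzmb: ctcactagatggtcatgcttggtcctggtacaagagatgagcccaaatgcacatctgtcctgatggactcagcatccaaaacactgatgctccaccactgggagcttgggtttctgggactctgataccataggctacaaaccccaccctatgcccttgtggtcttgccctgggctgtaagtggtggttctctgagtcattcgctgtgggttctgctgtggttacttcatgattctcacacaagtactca
Cma1 and Mcpt4 each held 1 match, beginning 79 and 103 bases before the start. These letters were not in the window of Gzmb. Promoters were found in RefSeq for 7 of the 9 genes, and not for the tryptases Tpsab1 and Tpsb2. The 7 genes had 8 entries, since Srgn had 2. Of the 7, 4 held a match, those of Cma1, Mcpt4, Cpa3 and Prss34. Of all 32851 promoter entries, 26.5% held a match. In the knockdown comparison Cpa3 was not called and the authors did not test Prss34. Whether a match goes with a change in level was not tested. The E-box CACGTG was in none of the windows of the 7 genes, against 6.02% of all entries, and CATGTG was in that of Prss34 (12.3% of all entries). TATAAA was in the windows of Mcpt4 and Cpa3 and in 1 of the 2 windows of Srgn (12.4% of all entries).

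Cpa3 (chromosome 3, 20115514 to 20142080 in mm9) encodes mast cell carboxypeptidase A3, which is stored in complex with chymase. It was at 3.16 FPKM in the knockdown, 0.365 FPKM in the maturing control and 1.499 FPKM in the proliferating control. The knockdown level was 2.10 times that of the proliferating control and the authors' deposited table did not call it (log2 ratio 1.07, SE 0.55, q 0.399). Cpa3 was thus the one mast cell protease of the set above 1 FPKM whose knockdown value, though higher, was not called. Mcpt8 (chromosome 14, 56700999 to 56704034), the basophil protease mMCP-8, was at 0.0343 FPKM in the knockdown, at 0.0107 FPKM in the maturing control, and was listed at 0 in the proliferating control. It was not tested by the authors, and neither was Prss34. Both basophil proteases were therefore close to or at 0 in every library.

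Srgn (chromosome 10, 61957175 to 61970503 in mm9) encodes the core protein of serglycin, on which the granule proteases are held. It was at 341 FPKM in the knockdown, 140 FPKM in the maturing control and 223 FPKM in the proliferating control, and exceeded 99.7%, 99.3% and 99.5% of all genes in the same order of libraries. The authors' deposited table gave it a log2 ratio of 0.61 (SE 0.38, q 0.636) in the knockdown and -0.68 (SE 0.39, q 0.532) in the maturing control, both against the proliferating control, and called neither. Its level was 4.64 times the protease sum in the knockdown, against 39.5 times in the maturing control and 41.2 times in the proliferating control.

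The comparison of maturing with proliferating control cells asked what 6 h in maturation medium changed. The authors tested 7 of the 9 genes and called 2 lower and none higher, where 1.17% of 11298 tested genes were called lower and 0.584% higher. Tpsab1 was at 11.7% of its proliferating level (authors' deposited log2 ratio -3.09, SE 0.69, q 2.58e-04), although both values were below 1 FPKM. Cpa3 was at 24.4% of its proliferating level (authors' deposited log2 ratio -2.04, SE 0.55, q 0.00392). Tpsb2 was at 40.7% and was not called (authors' deposited log2 ratio -1.30, SE 0.77, q 0.577). The chymases Cma1 and Mcpt4 were at 105% and 115% of their proliferating levels, and Gzmb was at 79.9%, none of them called. The authors' deposited log2 ratio for Cma1 was 0.08 (SE 0.54). The tryptases were thus below, and the chymases near, their proliferating levels in the maturing library, and the difference between the gene groups was not tested. The median log2 ratio of FPKM + 1 over the 9 was -0.11, against 0.02 over all tested genes.

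**Figure D4:**
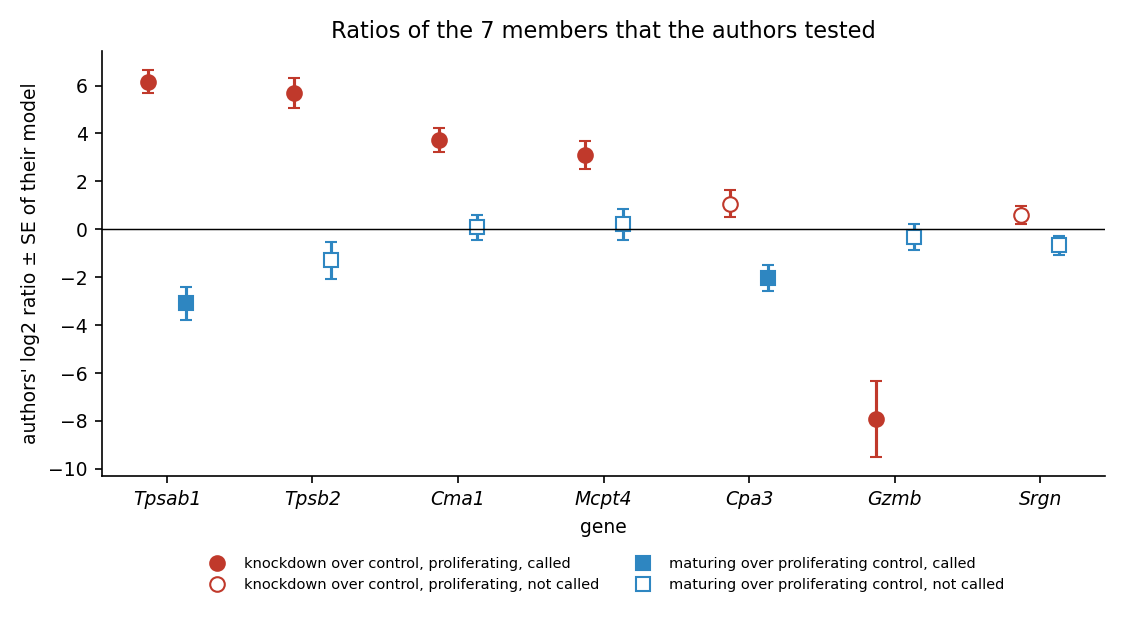
Log2 ratio in the authors' deposited table, with the SE of their model as bars, for the 7 members they tested; red circles, knockdown over proliferating control; blue squares, maturing over proliferating control; filled, called. The knockdown ratios ran from 6.16 for Tpsab1 to -7.92 for Gzmb, and of the maturing ratios those of Tpsab1 (-3.09) and Cpa3 (-2.04) were called.

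The last comparison in the deposited table set the proliferating knockdown against the maturing control. This pair differs in both hairpin and medium, and shares its libraries with the comparisons above. This comparison held rows for 6 of the 9 members and none for Srgn, Tpsab1 and Tpsb2, since it stops earlier in the alphabet. Of the 4 tested, 3 were called higher and 1 lower, where 7.22% of 9241 tested genes were called higher, 4.38% lower and 11.6% in either direction. Cma1 (21.01 FPKM in the knockdown, 1.69 FPKM in the maturing control) had a log2 ratio of 3.63 (SE 0.50, q 3.43e-11) in the authors' deposited table. Mcpt4 had 2.90 (SE 0.58, q 2.47e-05) there, and Gzmb had -7.59 (SE 1.57, q 4.82e-05). Cpa3 was called higher in this pair, 3.16 FPKM in the knockdown against 0.365 FPKM in the maturing control (authors' deposited log2 ratio 3.11, SE 0.55, q 9.94e-07).

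For each member at 1 FPKM or more in a library, the 3 genes with the most similar pair of log2 ratios of FPKM + 1 (knockdown over proliferating control, maturing over proliferating control) were found among 8529 genes, as a description over 3 libraries. Nearest to Tpsab1 were Serpinb1b, Serpinb1c and Serpinb1a, at distances of 0.21, 0.24 and 0.26 on the log2 scale. These are similar neighbouring copies of a serine protease inhibitor gene, so they can share fragments. Nearest to Tpsb2 were Pira2, Cd200r4 and Fam129a (distances up to 0.09), and nearest to Cma1 were Lilra6, Pira6 and Tspyl3 (up to 0.15). Pira2, Pira6, Lilra6 and Cd200r4 encode receptors of myeloid cells, and the first 3 belong to 1 family of similar sequences. Mcpt4 lay nearest to Rgs2, Gng7 and Pygo1, Cpa3 to Aim1, Furin and Gfpt1, Gzmb to Psrc1, Lipa and Soat1, and Srgn to Osbpl8, Gna14 and Fli1. All of these distances were at most 0.13. Adding 1 FPKM draws in the ratios of low genes, so genes listed as near can differ in fold change. Gzmb was at 0.00592 FPKM in the knockdown against 1.43 FPKM in the proliferating control. Its nearest gene Psrc1 was at 2.97 against 8.80 FPKM.

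Granule proteases are made as inactive precursors, and cathepsin C (Ctsc) removes the propeptide of chymases and granzymes. Of 6 lysosomal and endosomal proteases that include such activators, 3 were called lower in the knockdown in the authors' deposited table and none higher. Over all tested genes, 3.24% were called lower and 5.81% higher. The median log2 ratio of FPKM + 1 over the 6 was -0.38. Ctsc was at 2.66 FPKM in the knockdown, 11.5 FPKM in the maturing control and 12.6 FPKM in the proliferating control (authors' deposited log2 ratio -2.24, SE 0.50, q 1.99e-04). It thus stood opposite to the tryptases and chymases and on the same side as Gzmb. Cathepsin L (Ctsl) was at 0.101 FPKM in the knockdown, 0.850 FPKM in the maturing control and 0.934 FPKM in the proliferating control (authors' deposited q 1.96e-06). The asparagine-specific protease legumain (Lgmn) was at 0.0229 FPKM in the knockdown, 0.0682 FPKM in the maturing control and 0.484 FPKM in the proliferating control, and was called lower in both comparisons. Cathepsins B, D and E were not called. Cathepsin E (Ctse), at 66.8 FPKM in the knockdown, 64.7 FPKM in the maturing control and 66.6 FPKM in the proliferating control, had an authors' deposited log2 ratio of 0.00 (SE 0.38) in the knockdown.

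Among 8 inhibitors of proteases, the authors tested 6 in the knockdown comparison and called 2 higher, against 5.81% of all tested genes. Serpinb1a, which inhibits chymotrypsin-like and elastase-like granule proteases, was at 40.1 FPKM in the knockdown, 0.0238 FPKM in the maturing control and 0.344 FPKM in the proliferating control (authors' deposited log2 ratio 6.86, SE 0.47). Serpinb9, the inhibitor of granzyme B, was at 0.297 FPKM in the knockdown, 0.132 FPKM in the maturing control and 0.0824 FPKM in the proliferating control (authors' deposited log2 ratio 1.85, q 0.0148). The cystatin Cstb, an inhibitor of cathepsins, was at 92.1, 42.5 and 38.7 FPKM in the same order and was not called (q 0.0679). The median log2 ratio of FPKM + 1 over the 8 was 0.24.

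The sugar chains on serglycin are built by glycosyltransferases and sulphated by a further set of enzymes. Of 23 such genes, 21 were tested in the knockdown comparison and 1 was called, where 9.05% of all tested genes were called. The called gene was Hs2st1, the uronyl 2-O-sulphotransferase of heparin. It was at 11.5 FPKM in the knockdown, 4.02 FPKM in the maturing control and 4.41 FPKM in the proliferating control (authors' deposited log2 ratio 1.38, SE 0.44, q 0.0243). Ndst2, the N-deacetylase and N-sulphotransferase that mast cell heparin requires, had the highest level of the list, at 122 FPKM in the knockdown, 61.0 FPKM in the maturing control and 68.7 FPKM in the proliferating control, and was not called (authors' deposited log2 ratio 0.82, q 0.241). The median over the 23 was 0.10 in the knockdown and -0.11 in the maturing control. None of the 21 tested was called in the maturing control, near the share of 1.75% of all 11298 genes tested there.

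Of 19 genes of granule membranes and their release, 17 were tested in the knockdown comparison, with 4 called higher and none lower. Cd63, 1 of the 4, was not tested between the control libraries, so it counts as tested through its knockdown level. Over all tested genes, 5.81% were called higher and 3.24% lower. Cd63, a tetraspanin of granule and lysosome membranes, was at 13.7 FPKM in the knockdown, at 0.0224 FPKM in the maturing control, and was listed at 0 in the proliferating control (authors' deposited q 0.00121). Rab27b, a small GTPase of granule docking, was at 18.9 FPKM in the knockdown, 0.578 FPKM in the maturing control and 1.75 FPKM in the proliferating control, called higher in the knockdown (log2 ratio 3.44, SE 0.45) and lower in the maturing control (log2 ratio -1.60, SE 0.53) in the authors' deposited table. Rab3d, a GTPase of secretory granules, was at 1.21 FPKM in the knockdown, 0.581 FPKM in the maturing control and 0.389 FPKM in the proliferating control (authors' deposited q 0.0395). Lyst, whose loss gives giant granules, was called higher below 1 FPKM, at 0.680 FPKM in the knockdown, 0.241 FPKM in the maturing control and 0.203 FPKM in the proliferating control. Lamp1 and Vamp8, at 99.5 and 87.0 FPKM in the knockdown, against 99.8 and 92.6 FPKM in the proliferating control, were not called.

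Of 14 transcription factors of mast cells and their precursors, all were tested in the knockdown comparison, with 3 called higher and 1 lower. Over all tested genes, 5.81% were called higher and 3.24% lower. Beside Gata2, Mitf, which mast cell protease genes require, was at 1.09 FPKM in the knockdown, 0.184 FPKM in the maturing control and 0.135 FPKM in the proliferating control (authors' deposited log2 ratio 3.02, SE 0.59, q 1.32e-05). Hes1, a repressor downstream of Notch, was at 5.13, 0.471 and 0.555 FPKM in the same order (authors' deposited log2 ratio 3.21, q 2.64e-07). Zfpm1, the Gata cofactor Fog1, was at 5.70 FPKM in the knockdown, 38.6 FPKM in the maturing control and 22.7 FPKM in the proliferating control and was the 1 called lower (authors' deposited log2 ratio -1.99, q 1.85e-04). None of the 14 was called in the maturing control, where 1.75% of 11298 tested genes were called, so a count of none lies near that share.

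**Figure D5:**
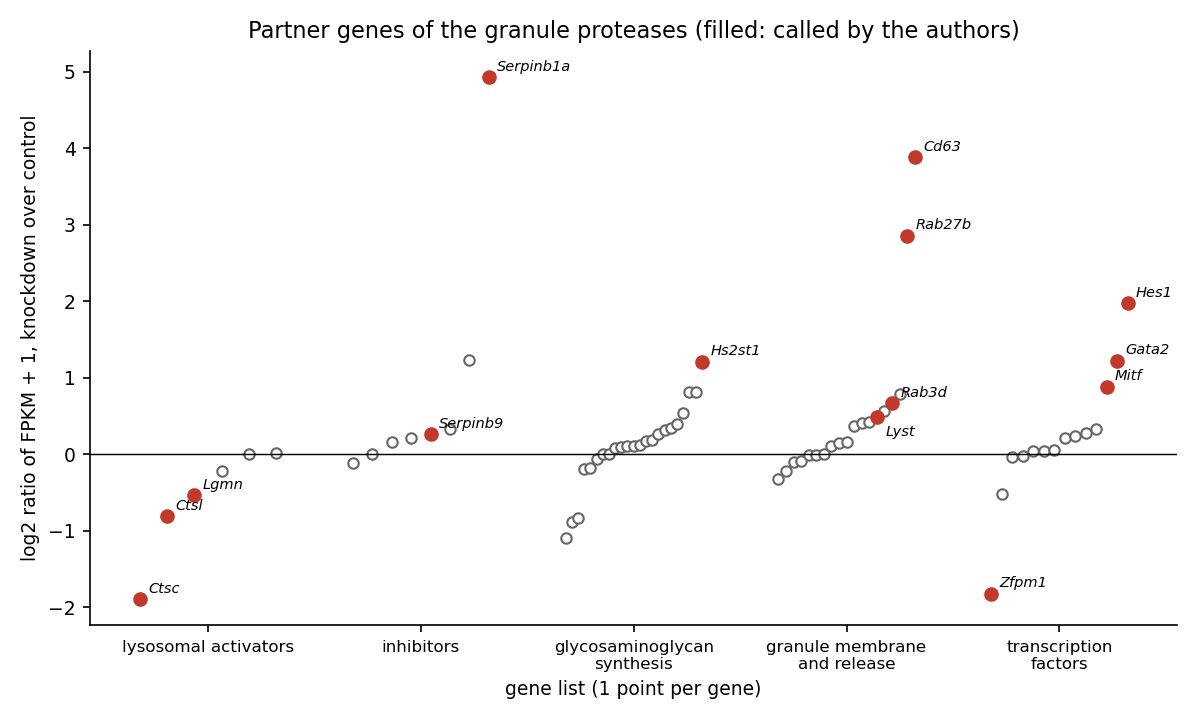
Log2 ratio of FPKM + 1, knockdown over proliferating control, for each gene of 5 lists of granule partner genes; filled points with names were called by the authors. Ctsc, Ctsl, Lgmn and Zfpm1 lie below 0 and Serpinb1a, Cd63 and Rab27b lie highest.

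Markers of other blood cells were read beside the proteases, and their part in the protease values was not tested. Of 17 further mast cell and basophil markers, 9 reached 1 FPKM in the knockdown, against 7 in each control. The list summed to 592 FPKM in the knockdown, 106 FPKM in the maturing control and 166 FPKM in the proliferating control. Most of the knockdown sum was Hdc (277 FPKM) and Kit (120 FPKM). Hdc was at 28.7 and Kit at 25.5 FPKM in the maturing control, and at 42.5 and 58.0 FPKM in the proliferating control. The authors' test of Kit was marked as failed. No marker of this list was at 0 in the knockdown, against 4 in each control. Il6 and Mrgprb2 were at 0 in both controls, and the others at 0 differed between the controls. The knockdown values include some near 0, such as Mrgprb1 (0.00485 FPKM) and Mrgprb2 (0.00528 FPKM). Such a count can turn on single fragments, and the proliferating control library was the shallowest. The authors tested 11 of the 17 in the knockdown comparison and called 6 higher and 1 lower. Between the control libraries they tested 8, so some count as tested only through their knockdown level. Among those called higher were Ms4a2, which encodes the IgE receptor beta chain, Cd200r3 and Il1rl1, and the 1 called lower was Alox5. Over all tested genes, 5.81% were called higher and 3.24% lower. Other defining markers stayed low: Fcer1g, the gamma chain of the IgE receptor, was at 0.0185 FPKM in the knockdown, 0.0341 FPKM in the maturing control and 0.0266 FPKM in the proliferating control, Fcer1a was at 0.339, 0.168 and 0.136 FPKM, and the mast cell receptor Mrgprb2 was at 0.00528 FPKM in the knockdown and listed at 0 in both controls. The 10 markers of cytotoxic lymphocytes, the other home of granzyme B, summed to 0.0491 FPKM in the knockdown, 0.0911 FPKM in the maturing control and 0.0960 FPKM in the proliferating control. Of them 6 (Gzma, Gzmk, Nkg7, Klrd1, Ncr1 and Il2rb) were listed at 0 in every library, and perforin (Prf1) was at 0 in both proliferating libraries. The 10 neutrophil markers summed to 0.0605 FPKM in the knockdown, 0.0874 FPKM in the maturing control and 0.0780 FPKM in the proliferating control. The 8 monocyte and macrophage markers summed to 1.54, 1.51 and 1.23 FPKM. Of them 3 were tested in the knockdown comparison and 1 was called higher, Itgam. The 7 eosinophil markers summed to 1.60, 0.0237 and 0.0609 FPKM, of which 1.43 FPKM in the knockdown was Il5ra. The 8 megakaryocyte markers summed to 23.6, 8.73 and 14.6 FPKM, with 4 tested in the knockdown comparison and 3 of these called higher. The 13 erythroblast markers summed to 749 FPKM in the knockdown, 3028 FPKM in the maturing control and 1882 FPKM in the proliferating control. Most of each sum was globin, with Hba-a1,Hba-a2 at 265, 1747 and 843 FPKM and Hbb-b1,Hbb-b2 at 280, 963 and 798 FPKM. Rhag went the other way, at 119, 56.2 and 77.9 FPKM, and was called in neither comparison. All 13 were tested in both comparisons, with 4 called lower in the knockdown and 3 called higher in the maturing control. In the maturing control comparison, 0.584% of 11298 tested genes were called higher.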

How the data were processed

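RNA was taken from cultured mouse erythroblasts and sequenced, with 1 sample in each of 4 groups. Per the submitters' processing notes, FastQC 0.10.1 was run, Cufflinks 2.0.2 and Cuffdiff were used, and the build was mm9. The aligner, annotation and read length were not given in the sources used here. Per the file headers, the file the authors deposited has 65535 rows in 3 pairwise comparisons, with the FPKM of both libraries, a log2 ratio, a statistic, a p-value and a q-value. The third comparison holds 19067 of 23234 genes in alphabetical order, which leaves out Srgn, Tpsab1 and Tpsb2. The knockdown library was matched by its target and the number in its title. Genes marked as significant by the authors had a q-value of at most 0.05. The SE is the deposited log2 ratio divided by the statistic.

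No test was run, since each group has 1 library. Ratios of FPKM + 1 understate the change of low genes. Depth is unknown; relative depth came from genes below 0.03 FPKM. Coding sequences (1 principal transcript a gene) came from GENCODE M21 and were aligned globally, and promoters came from RefSeq. Protein sequences were not used here. The flank before the tryptase cluster is not reported here. On simulated data only 1 scaling was tested, the one centred on genes at 5 FPKM or more in every library. The shifted genes there were at 5 FPKM or more, so low genes were not covered. The ratio of FPKM + 1 and the other scalings were not tested so. The members and lists were chosen with earlier results of these data known. Named genes are the members, called list genes at 1 FPKM or more in a library (up to 6 a list), and the nearest genes; others, such as flanking genes, Tpsg1, Mcpt-ps1, Mcpt1, Mcpt2, Mcpt9, Gzmc, Ctsl, Lgmn, Lyst, Serpinb9, Ndst2, Ctse, Cstb, Lamp1, Vamp8 and uncalled markers, were chosen after their values were seen. Python 3.11.15, numpy 2.4.6, pandas 2.3.3 and Biopython 1.88 were used. Alternatives were a q-value of 0.01, calls with a log2 ratio of FPKM + 1 of at least 1 in size, members at 1 or at 5 FPKM or more, pseudocounts of 0.1 and 5, the mean, and 4 other scalings.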

Additional observations from a re-analysis of the deposited data

How the results depend on the processing

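All 5 calls among the members in the knockdown comparison remained at a q-value of 0.01 and with a log2 ratio of FPKM + 1 of at least 1 in size. The count was 5 over members at 1 FPKM or more in a library and 3 over those at 5 FPKM or more. These filters are no check of the calls: Tpsab1, Tpsb2 and Mcpt4 passed the lower one, and Tpsab1, Tpsb2 and Cma1 the higher one, in the knockdown library alone. In the maturing control comparison the 2 calls remained at a q-value of 0.01, while the count was 0 with a size of 1 added, 1 among members at 1 FPKM or more and 0 among those at 5 FPKM or more. The mean log2 ratio over the 9 in the knockdown was 1.32 in place of the median of 0.73, and the median was 0.34 with a pseudocount of 5 and 1.03 with one of 0.1. The size of the ratio of called members depended on these settings: over pseudocounts and scalings it ran from 3.03 to 5.93 for Tpsab1, 1.27 to 4.94 for Tpsb2, 1.98 to 3.63 for Cma1, 0.34 to 2.55 for Mcpt4 and -3.85 to -0.36 for Gzmb in the knockdown, and from -2.00 to -0.14 for Tpsab1 and -1.78 to -0.28 for Cpa3 in the maturing control. With Srgn added to the sum, Tpsab1 held 9.75% in the knockdown, and Cma1 1.18% in the maturing control and 0.702% in the proliferating control; with the tryptases summed, they held 65.0% in the knockdown. An equal upper quartile shifted every gene of the knockdown library up by 0.11 on the log2 scale. The 4 calls of the third comparison stayed at a q-value of 0.01, a setting chosen after seeing the data. No paired analysis was possible because each group has 1 sample, and no replicate could be left out. Values near 0, those of Gzmb in the knockdown and of Mcpt8 and Prss34, have an unknown number of fragments behind them.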

Other observations

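Beside Cpa3 on chromosome 3, which was not called in the knockdown, lies the glycogenin gene Gyg, the primer of glycogen synthesis. It was at 20.1 FPKM in the knockdown, 0.737 FPKM in the maturing control and 0.819 FPKM in the proliferating control, and was called higher (authors' deposited log2 ratio 4.62, SE 0.48, q listed as 0). Of the other tested neighbours of Cpa3, Hps3, whose product is needed for lysosome-related organelles, was at 6.68 FPKM in the knockdown, 2.78 FPKM in the maturing control and 2.62 FPKM in the proliferating control and was not called (q 0.237). Hltf was at 2.75, 2.80 and 2.37 FPKM in the same order. The 7 neighbours of Srgn were all tested and none was called, with Vps26a at 27.1 FPKM in the knockdown, 18.3 FPKM in the maturing control and 22.4 FPKM in the proliferating control. These genes were chosen for their position after the values were seen.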
